A study of Mus musculus with 30 samples.

Results

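The liver makes fatty acids from acetyl-CoA and stores them as triglyceride, and 32 genes of that route were followed here in the livers of adult mice. The males that gave the sperm and the seminal plasma for these mice had been fed a normal or a low protein diet. The genes were taken by name, whatever their signal, and 29 of the 32 were represented by 1 probe set each among the 22206 probe sets tested. No probe set was annotated to Scd2, Srebf1 or Acsl3, which therefore have no values here. Expression was measured on 30 Clariom S mouse arrays, 1 per animal, as log2 signals.

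All animals were C57/BL6J mice whose fathers had been fed either a normal protein diet (NPD) or an isocaloric low protein diet (LPD) for at least 8 weeks. Sperm was delivered by artificial insemination, and seminal plasma came from a separate vasectomised male, so that 4 groups were formed. NN offspring had NPD sperm and NPD seminal plasma (3 females and 4 males), LL offspring had LPD for both (5 females and 4 males), NL offspring had NPD sperm with LPD seminal plasma (3 females and 4 males), and LN offspring had LPD sperm with NPD seminal plasma (3 females and 4 males). Dams and offspring of every group ate standard chow, and the livers were taken at 16 weeks of age. According to the methods, a male and a female could come from 1 litter, but the labels do not say which animals did, so animals were treated as independent and the part of shared litters in the p-values was not tested.

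In de novo lipogenesis, citrate leaves the mitochondrion and is cleaved to cytosolic acetyl-CoA, acetyl-CoA carboxylase makes malonyl-CoA, and fatty acid synthase builds the saturated chain using NADPH. Elongases and desaturases then extend and desaturate the chain, and activated acyl chains are joined stepwise to a glycerol backbone to give triglyceride. In liver the route is known to respond to insulin, carbohydrate and fasting through the transcription factors SREBP-1c (encoded by Srebf1) and ChREBP (encoded by Mlxipl).

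Some arrays stood apart. On NL replicate 6, a male, the hybridisation controls averaged 7.61 against 10.1 to 11.0 on the other 29 arrays, and the background controls had a median of 4.37 against 2.93 to 3.38. This array read 21 of the 29 members below all other arrays, against 29.5% of all probe sets. It read 4 of them (Acacb, Mogat1, Mogat2 and Pnpla3) above all other arrays, against 43.5% of all probe sets. All 17 members with a mean log2 signal of at least 10 were below. The same held for 93.4% of all probe sets with a mean of at least 10, so counts are given for all 30 arrays and for 29 arrays without it, and members' differences for 29 arrays, with the value on 30 arrays beside those that it moved by over 1.5 times or turned. The Y-linked gene Eif2s3y read 6.56 on LL replicate 1, labelled female, between the means of 3.13 in females and 8.44 in males, and 3.24 on NL replicate 6, labelled male. NN replicate 5, a male, had a mean of 8.80 over 5 exocrine pancreas markers, against 4.84 to 5.28 on the other arrays apart from NL replicate 6. Hepatocyte markers averaged between 12.9 and 13.0 on the 29 arrays. In whole tissue, fewer cells of a type and less RNA per cell cannot be told apart.

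NN replicate 3, a female control, held the lowest NN signal for 19 of the 29 members, against 17.9% of all probe sets. Its Fasn signal was 9.45 where the other NN arrays ranged upwards from 10.1, its Acly signal, for the citrate-cleaving enzyme, was 9.31 against 10.3 or more, and its Lpin2 signal, for a phosphatidate phosphatase, was 7.80 against 9.74 or more. Relative to the mean of the other NN females its median member was lower by 0.52 on the log2 scale, and its median probe set differed by -0.0034. NN is the control of LL, NL and LN, so the value without this animal as well as NL replicate 6 is given where it moved a member's difference by over 1.5 times or turned it, and for Acacb and Pnpla3; that alternative was chosen after seeing the data.

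No member was called in any of the 3 diet groups against NN with both sexes together. With limma and Benjamini-Hochberg adjustment over all probe sets, 0 of 29 members had an adjusted p under 0.05 in LL, NL or LN, with 30 arrays and with 29. The plain variance of the analysis of variance also called 0. Over all probe sets the share called was 0% in LL at both array counts, 0.0135% in NL with 30 arrays and 0.0540% with 29, and 0% in LN with 30 and 0.0405% with 29. At an unadjusted p under 0.05, the members numbered 0 of 29 in LL with 30 arrays (3.39% of all probe sets) and 1 with 29 (8.43%), 3 in NL with 30 arrays (23.8%) and 4 with 29 (14.1%), and 2 in LN with 30 arrays (4.66%) and 4 with 29 (11.6%).

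The sign of the differences depended on which arrays were counted. Without NL replicate 6, 24 of 29 members were higher in LL than in NN (median log2 difference 0.13), 25 in NL (0.23) and 22 in LN (0.09), whereas over all probe sets 53.4%, 52.9% and 55.5% were higher. With NL replicate 6 kept, 10 of 29 members were higher in NL, against 54.7% of all probe sets, and the median of the 29 was -0.15. With both NL replicate 6 and NN replicate 3 left out, 19 members were higher in LL (0.06), 17 in NL (0.08) and 15 in LN (0.05). Over all probe sets the shares were then 53.8%, 53.3% and 55.4%. All 3 comparisons share the NN arrays.

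**Figure D1:**
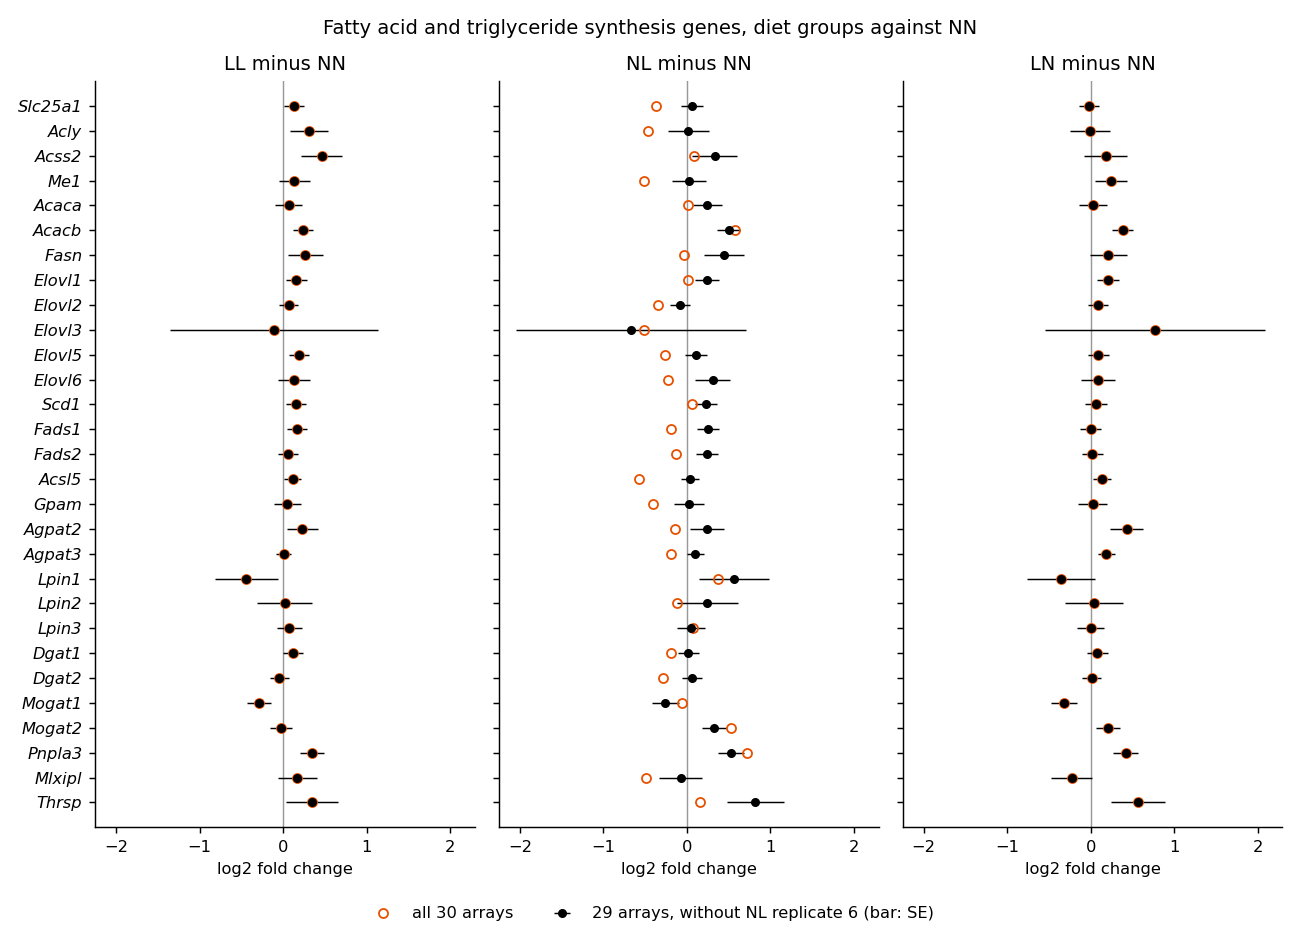
Log2 fold change (x axis) of the 29 measured members (y axis) in LL, NL and LN against NN, both sexes together; filled points are the fit of 29 arrays without NL replicate 6 with bars of 1 SE, and open points are all 30 arrays. In NL the open points lie to the left for most members, where 10 of 29 are above 0 against 25 of 29 for the filled points.

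Acacb and Pnpla3 had the smallest p-values in NL and LN. Acacb encodes acetyl-CoA carboxylase 2, the form at the mitochondrial surface whose malonyl-CoA restrains fatty acid oxidation. Its log2 signal was lowest 6.76, median 7.13 and highest 7.63 in NN (n = 7), 7.22, 7.34 and 7.87 in LL (n = 9), 7.45, 7.75 and 7.92 in NL without replicate 6 (n = 6), and 7.33, 7.55 and 8.00 in LN (n = 7). NL and LN lay mostly in and above the upper part of the NN range, and every group overlapped NN. The difference from NN was 0.50 ± 0.13 (log2, SE) in NL (adjusted p = 0.0984, limma, 29 arrays; exact two-sided permutation p = 0.00408) and 0.38 ± 0.13 in LN (adjusted p = 0.248, limma; exact two-sided permutation p = 0.0152). In LL it was 0.24 ± 0.12 (adjusted p = 0.602, limma; exact two-sided permutation p = 0.106). On all 30 arrays the NL difference was 0.58 ± 0.14 (adjusted p = 0.0977, limma), and NL replicate 6 itself read 8.29. Without NN replicate 3 as well, the difference was 0.48 in NL (adjusted p = 0.158, limma) and 0.36 in LN (adjusted p = 0.341, limma). The lowest NN signal, 6.76, was NN replicate 5, the array with the exocrine pancreas markers. Leaving out NN replicate 5 and NL replicate 6 gave 0.42 in NL and 0.31 in LN, the lowest of all settings. The part of pancreas tissue in this was not tested.

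Pnpla3 encodes a protein of the lipid droplet surface that acts on acylglycerols. Its probe set was dim, with a mean log2 signal of 4.65, and it and Mogat1 were among those removed by a filter at the 40th percentile of mean signal. Its signal was lowest 3.87, median 4.42 and highest 4.66 in NN, 3.94, 4.77 and 5.06 in LL, 4.49, 4.81 and 5.32 in NL without replicate 6, and 4.49, 4.74 and 4.99 in LN, with every group overlapping NN. The differences from NN were 0.35 ± 0.14 in LL, 0.53 ± 0.15 in NL and 0.42 ± 0.15 in LN on the log2 scale (adjusted p = 0.516, 0.136 and 0.273, limma, 29 arrays), and exact two-sided permutation p-values were 0.0549, 0.00466 and 0.00466. Leaving out NN replicate 3 as well gave 0.27, 0.45 and 0.34. NL replicate 6 read 6.25, above every other array, and with it the NL difference was 0.73 ± 0.20 (adjusted p = 0.0992, limma).

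Fasn, the fatty acid synthase gene, overlapped widely between groups. Its signal was lowest 9.45, median 10.6 and highest 11.1 in NN, 10.2, 10.6 and 11.8 in LL, 10.3, 10.9 and 11.4 in NL without replicate 6, and 10.2, 10.7 and 11.1 in LN. The difference from NN was 0.27 ± 0.21 in LL, 0.44 ± 0.23 in NL and 0.21 ± 0.23 in LN on the log2 scale (adjusted p = 0.770, 0.391 and 0.763, limma, 29 arrays). In NL it was -0.03 ± 0.37 on 30 arrays, where NL replicate 6 read 7.57, and without NN replicate 3 as well the differences were 0.10 in LL, 0.28 in NL and 0.05 in LN. Scd1, which encodes the stearoyl-CoA desaturase that forms monounsaturated chains, differed from NN by 0.15 ± 0.12 in LL, 0.23 ± 0.13 in NL and 0.06 ± 0.13 in LN (adjusted p = 0.763, 0.433 and 0.888, limma, 29 arrays), and in NL by 0.06 ± 0.17 on 30 arrays. Without NN replicate 3, where Scd1 read 12.0 against 12.9 or more on the other NN arrays, these differences became 0.0035, 0.08 and -0.09.

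**Figure D2:**
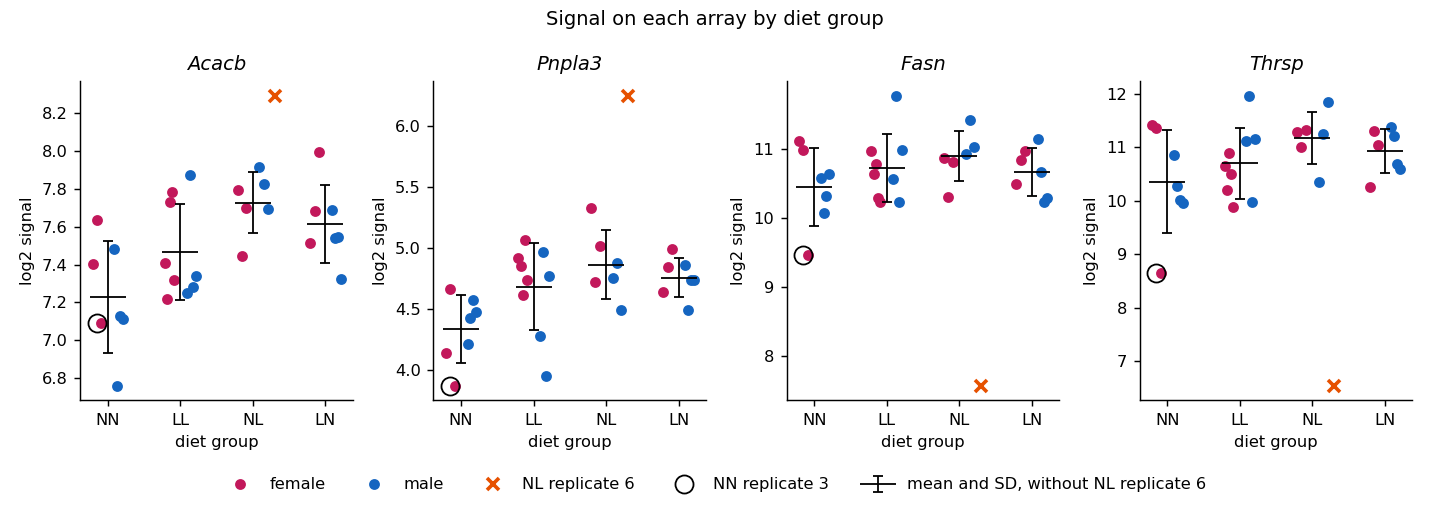
Log2 signal (y axis) of Acacb, Pnpla3, Fasn and Thrsp on each array by diet group (x axis), females and males as separate colours; the bar is the mean and SD without NL replicate 6, which is drawn as a cross, and NN replicate 3 is ringed. NL replicate 6 lies above all arrays for Acacb (8.29) and Pnpla3 (6.25) and below all for Fasn (7.57) and Thrsp (6.54).

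A further 4 members had an unadjusted p under 0.05 in NL or LN. Thrsp, encoding the Spot 14 protein that accompanies lipogenesis, was 0.82 ± 0.34 higher on the log2 scale in NL than in NN without replicate 6 (adjusted p = 0.276, limma; exact two-sided permutation p = 0.0833), with NN values from 8.66 to 11.4 and NL values from 10.4 to 11.8. That difference was 0.16 ± 0.52 with all 30 arrays and 0.53 without NN replicate 3 as well. Mogat2, a monoacylglycerol acyltransferase gene, was 0.33 ± 0.15 higher in NL (adjusted p = 0.311, limma), with a range of 5.38 to 6.05 in NN and 5.70 to 6.47 in NL, and by 0.52 ± 0.19 on 30 arrays (adjusted p = 0.139, limma). In LN, Agpat2, whose enzyme adds the second acyl chain to the glycerol backbone, was 0.43 ± 0.20 higher (adjusted p = 0.400, limma), and Mogat1 was lower by 0.32 (log2 difference -0.32 ± 0.15, adjusted p = 0.415, limma). None of these 4 passed the adjusted test.

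The groups also form the cells of a design with sperm diet and seminal plasma diet, so that the contribution of each can be estimated. No member passed an adjusted p of 0.05 for the sperm diet, the seminal plasma diet, the departure from additivity of both, or NL against LN, with 30 arrays or with 29 (limma). Of all probe sets, 0% passed for the sperm diet, the seminal plasma diet and NL against LN, and 0.0135% with 30 arrays and 0.113% with 29 for the departure from additivity. The unadjusted counts were 0 of 29 with 30 arrays (4.81% of all probe sets) and 1 with 29 (6.52%) for the sperm diet, 2 (11.0%) and 2 (8.55%) for the seminal plasma diet, and 1 (14.6%) and 1 (6.89%) for NL against LN. For the departure from additivity, 3 members (12.2%) and 5 members (12.6%) were counted, and all of them were negative. Of all probe sets counted, 1674 of 2705 with 30 arrays and 1570 of 2788 with 29 were also negative. This contrast uses the same NN, NL and LN arrays as the differences given above.

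A negative departure means that LL was lower than the sum of the NL and LN differences from NN would give. It was -0.65 ± 0.18 for Acacb, -0.60 ± 0.21 for Pnpla3, -0.56 ± 0.20 for Mogat2 and -1.04 ± 0.46 for Thrsp on the log2 scale (adjusted p = 0.117, 0.213, 0.224 and 0.340, limma, 29 arrays). The fifth, Agpat3, an acyltransferase gene of phospholipid and triglyceride assembly, was at -0.28 ± 0.14 (adjusted p = 0.387, limma) and at 0.02 on 30 arrays. On all 30 arrays the values for Acacb, Pnpla3, Mogat2 and Thrsp were -0.73, -0.80, -0.75 and -0.38. Lpin1, whose product lipin 1 dephosphorylates phosphatidate, was lower by 0.68 with LPD sperm (log2 difference -0.68 ± 0.28, adjusted p = 0.750, limma) and 0.92 ± 0.42 higher in NL than in LN (adjusted p = 0.692, limma). Its range was 8.46 to 10.7 in NL and 7.15 to 9.89 in LN. For the seminal plasma diet, Fads1, the desaturase gene of the arachidonate route, differed by 0.21 ± 0.09 and Pnpla3 by 0.23 ± 0.10 (adjusted p = 0.558 and 0.569, limma, 29 arrays), whereas Fads1 was -0.01 ± 0.21 with all 30 arrays.

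Within each sex, again no member had an adjusted p under 0.05 in LL, NL or LN against NN, with 30 arrays or with 29 (limma). Of all probe sets, 0% passed in each of these comparisons, except 0.0360% in LN males with 29 arrays. In females, members at an unadjusted p under 0.05 numbered 1 of 29 in LL with 30 arrays (4.30% of all probe sets) and 4 with 29 (11.3%), 1 (3.38%) and 5 (9.53%) in NL, and 1 (2.96%) and 3 (8.02%) in LN. In males they numbered 0 (1.93%) and 0 (5.03%) in LL, 7 (32.8%) and 4 (11.5%) in NL, and 1 (4.72%) and 7 (12.1%) in LN. The exact permutation test cannot go below 0.10 with 3 females against 3, or below 0.0286 with 4 males against 4 or 3.

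In females the smallest p-values among the members belonged to Pnpla3, Scd1, Fads1, Fads2, Lpin2 and Mogat1. Pnpla3 read 4.14, 4.66 and 3.87 in NN females and 5.32, 4.72 and 5.02 in NL females, without overlap, a difference of 0.79 ± 0.21 (log2, adjusted p = 0.361, limma; exact two-sided permutation p = 0.1, the smallest possible). In LL females it read between 4.61 and 5.06 (difference 0.61 ± 0.19, adjusted p = 0.259, limma), and in LN females between 4.64 and 4.99 (0.60 ± 0.21, adjusted p = 0.507, limma). Scd1 read 12.9, 12.9 and 12.0 in NN females and 13.0, 13.1 and 13.1 in NL females (0.50 ± 0.17, adjusted p = 0.374, limma), and the low value is NN replicate 3. Without that animal the differences of NL from NN females were 0.62 for Pnpla3, 0.19 for Scd1, 0.27 for Fads1 and 0.19 for Fads2, against 0.79, 0.50, 0.53 and 0.43 with it. Fads2 encodes the desaturase that opens the polyunsaturated route. Lpin2 read 9.78, 10.1 and 7.80 in NN females and 10.4, 10.6 and 10.4 in LN females, and the difference of 1.24 ± 0.45 (adjusted p = 0.509, limma) became 0.53 without NN replicate 3. In LL females without that animal, Scd1 differed by 0.08 and Fads1 by 0.08, against 0.38 and 0.34 with it. Mogat1 was lower by 0.46 (log2 difference -0.46 ± 0.21) in LL females and by 0.52 (-0.52 ± 0.24) in LN females (adjusted p = 0.422 and 0.599, limma).

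In males the NL comparison turned on the weak array. Fasn read 10.6, 10.1, 10.3 and 10.6 in NN males and 10.9, 11.4, 7.57 and 11.0 in NL males, where 7.57 is NL replicate 6. The difference in males was -0.16 ± 0.51 with that array and 0.73 ± 0.32 without it (adjusted p = 0.832 and 0.388, limma; exact two-sided permutation p = 1 and 0.0286). In NL females Fasn differed by 0.14 ± 0.34, and by -0.38 without NN replicate 3. Acacb read 7.48, 6.76, 7.13 and 7.11 in NN males and 7.92, 7.82, 8.29 and 7.69 in NL males, so that the NL males lay above all NN males with and without NL replicate 6. The difference was 0.69 ± 0.18 without that array (adjusted p = 0.198, limma; exact two-sided permutation p = 0.0571) and 0.81 ± 0.19 with it (adjusted p = 0.0810, limma). The 6.76 belongs to NN replicate 5, and without it and NL replicate 6 the difference was 0.57. Mogat2 was 0.50 ± 0.19 and Elovl1, an elongase gene of very long chains, 0.36 ± 0.16 higher in NL males without NL replicate 6 (adjusted p = 0.318 and 0.387, limma). With it they differed by 0.83 ± 0.24 and -0.08 ± 0.26 (adjusted p = 0.0823 and 0.827, limma).

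In LN males, Mlxipl, the gene of ChREBP, read 9.99, 9.31, 9.39 and 8.83 against 10.6, 10.2, 10.1 and 10.0 in NN males, without overlap. The log2 difference was -0.83 ± 0.28 (adjusted p = 0.245, limma, 29 arrays; exact two-sided permutation p = 0.0286). Agpat2 read 11.2, 11.0, 11.6 and 11.6 in LN males and 10.6, 11.0, 10.5 and 10.9 in NN males, a difference of 0.61 ± 0.20 (adjusted p = 0.241, limma). Mogat2 was 0.47 ± 0.18 and Elovl1 0.36 ± 0.15 higher (adjusted p = 0.271 and 0.322, limma). The other members at an unadjusted p under 0.05 were Acacb at 0.41, Lpin1 at -1.02 and Lpin2 at -0.87 on the log2 scale (adjusted p = 0.330, 0.405 and 0.374, limma).

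The difference between the sexes in the response to diet was tested directly, and 0 of 29 members had an adjusted p under 0.05 for LL, NL or LN (limma, 30 and 29 arrays; 0% of all probe sets). Unadjusted counts with 30 and with 29 arrays were 0 (2.39% of all probe sets) and 0 (6.49%) for LL, 4 (6.28%) and 3 (4.98%) for NL, and 1 (2.74%) and 5 (7.10%) for LN. For LN, Lpin2 had the smallest p among the members: it read 9.33, 10.1, 7.95 and 8.67 in LN males and 10.2, 9.81, 9.74 and 9.79 in NN males, opposite in direction to the females. The difference of males minus females was -2.11 ± 0.59 on the log2 scale (adjusted p = 0.373, limma, 29 arrays) and -1.39 without NN replicate 3 (adjusted p = 0.761, limma). The same quantity for Mlxipl was -1.40 ± 0.43, and -1.21 without NN replicate 3. Of the 5 members counted for LN on 29 arrays, 4 were negative and 1, Mogat2, was positive. Without both NL replicate 6 and NN replicate 3, the quantity was 0.63 for Mogat2 and -0.25 for Fads1 (adjusted p = 0.842 and 0.935, limma). For NL it was -0.54 ± 0.24 for Elovl2, an elongase gene of long polyunsaturated chains, -0.52 ± 0.24 for Fads1 and -1.30 ± 0.61 for Lpin2 (adjusted p = 0.970 in all 3, limma, 29 arrays). On 30 arrays these were -0.96, -1.26 and -1.85, and without both NL replicate 6 and NN replicate 3 they were -0.51, -0.26 and -0.59.

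Males and females differed in 4 members, averaged over the diet groups. With 29 arrays, Elovl3, Elovl1 and Agpat2 were higher and Dgat2 was lower in males at an adjusted p under 0.05 (limma), against 5.65% of all probe sets. With 30 arrays the adjusted test called 1 member, Elovl3, against 2.51% of all probe sets. At an unadjusted p under 0.05 there were 7 of 29 members without NL replicate 6 (17.3% of all probe sets) and 2 with it (13.1%).

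Elovl3, an elongase gene of saturated and monounsaturated chains that is known for male-biased expression in mouse liver, ranged from 3.51 through a median of 6.60 to 10.4 in the 14 females and from 8.89 through 11.2 to 12.4 in the 15 males without NL replicate 6. It was higher in males by 4.64 ± 0.42 on the log2 scale, or 25.0-fold (adjusted p = 3.69e-09, limma; two-sided permutation p = 1e-05, the smallest 100000 resamples can give). The 10.4 belongs to LL replicate 1, the animal labelled female with intermediate Y-linked signals. Without it the 13 females reached at most 7.31 and did not overlap the males, and the difference was 4.87 ± 0.31 (adjusted p = 2.73e-12, limma). NL replicate 6 read 9.38. The male means were 11.0 in NN (n = 4), 11.4 in LL (n = 4), 10.3 in NL (n = 3) and 11.8 in LN (n = 4), with SDs of 0.43, 0.38, 1.39 and 0.85.

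The other sex differences were small against Elovl3. Agpat2 ranged from 10.0 (median 10.7) to 11.1 in females and from 10.5 (median 11.0) to 11.6 in males, a difference of 0.51 ± 0.11 on the log2 scale (adjusted p = 0.00328, limma). Elovl1 ranged from 8.82 (median 9.22) to 9.60 in females and from 9.14 (median 9.46) to 9.86 in males, a difference of 0.31 ± 0.08 (adjusted p = 0.0137, limma). Dgat2, whose enzyme adds the last acyl chain of triglyceride, ranged from 10.4 (median 10.8) to 11.0 in females and from 10.2 (median 10.5) to 10.8 in males, with a log2 difference of -0.25 ± 0.07 (adjusted p = 0.0203, limma). The sexes overlapped for these 3 members. With NL replicate 6, which read 8.20, 7.84 and 8.25 for them, the differences were 0.32 for Agpat2, 0.20 for Elovl1 and -0.38 for Dgat2 (adjusted p = 0.540, 0.544 and 0.221, limma).

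**Figure D3:**
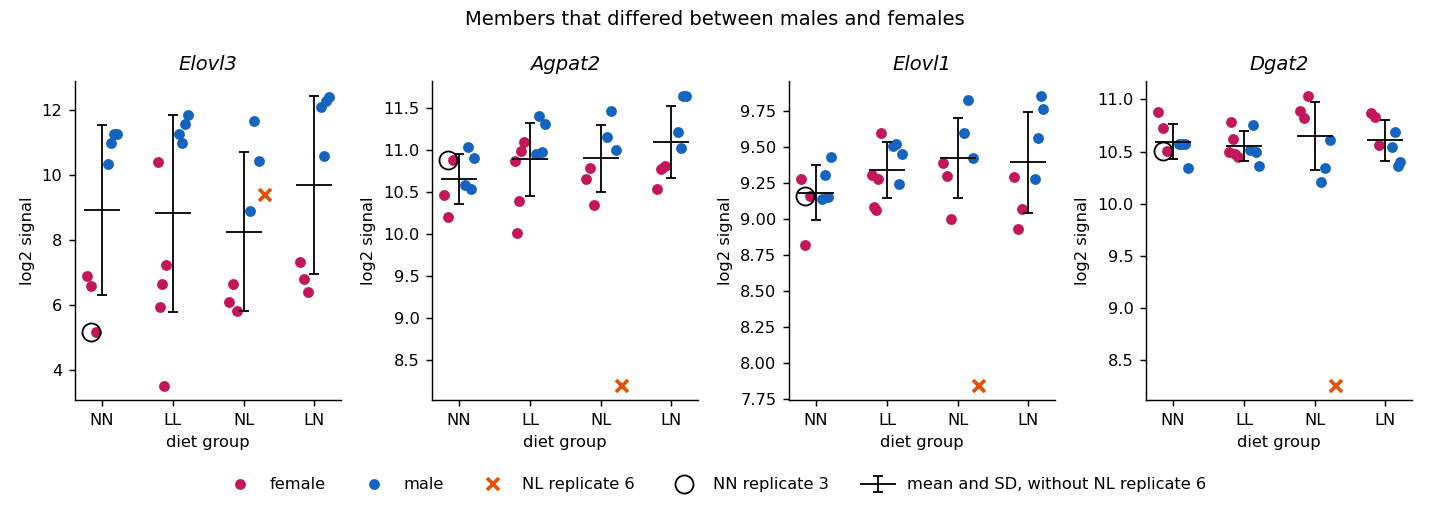
Log2 signal (y axis) of Elovl3, Agpat2, Elovl1 and Dgat2 on each array by diet group (x axis), females and males as separate colours, with the mean and SD without NL replicate 6 and that array as a cross; NN replicate 3 is ringed. For Elovl3 the females lie at or below 7.31 apart from LL replicate 1 at 10.4, and the males without NL replicate 6 lie at or above 8.89.

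Most members varied with Fasn from animal to animal within groups, less so without NN replicate 3 and LL replicate 7. Each animal's deviation from the mean of its own diet and sex group was compared with its deviation in Fasn on the 29 arrays without NL replicate 6, which removes the diet and sex differences described above. Of the 28 other members, 23 had a positive Pearson r with Fasn, and the median r was 0.62, against -0.01 over all other probe sets. Of the 28, 7 had an adjusted p under 0.05 in limma with Fasn as a covariate, adjusted over all probe sets, and all 7 were positive, against 0.140% of all probe sets that passed with a positive slope. The count was 2 without NN replicate 3 (median r 0.47), and 1 without LL replicate 7 as well (0.37).

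The 7 were Acaca, Gpam, Acss2, Thrsp, Acly, Lpin2 and Me1, which span acetyl-CoA supply, chain synthesis and glycerolipid assembly. Acaca, the gene of the cytosolic acetyl-CoA carboxylase 1, had r = 0.88 and rho = 0.85 (permutation p = 2e-05 for each; adjusted p = 0.000917, limma). Gpam, whose enzyme attaches the first acyl chain to glycerol phosphate, had r = 0.85 and rho = 0.88 (permutation p = 1e-05 for each, the smallest 100000 resamples can give; adjusted p = 0.00257, limma). Acss2, which makes acetyl-CoA from acetate, had r = 0.83 and rho = 0.83 (adjusted p = 0.000917, limma), and Thrsp had r = 0.83 and rho = 0.74 (adjusted p = 0.000917, limma). The values were 0.76 for Acly and 0.73 for Lpin2, and 0.72 for Me1, the malic enzyme gene that supplies NADPH (adjusted p = 0.00824, 0.0181 and 0.0417, limma). Per unit of Fasn on the log2 scale, Thrsp moved by 1.24, Acss2 by 1.02, Lpin2 by 0.96, Acly by 0.85, Acaca by 0.58, Me1 by 0.54 and Gpam by 0.53.

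The largest Fasn deviations were -1.06 in NN replicate 3 and 0.88 in LL replicate 7, a male. Without this pair r was 0.79 for Acaca, 0.90 for Gpam, 0.70 for Acss2, 0.61 for Thrsp, 0.60 for Acly, 0.55 for Lpin2 and 0.63 for Me1. The median r of the 28 members was then 0.37, and 1 member passed the adjusted test, against 0.0045% of all probe sets. Without NN replicate 3 alone, 2 members, Gpam and Acaca, passed (adjusted p = 0.000244 and 0.0404, limma), against 0.0135% of all probe sets, and the median r was 0.47. Scd1 had r = 0.76 (adjusted p = 0.0670, limma), which was 0.56 without the pair. For Slc25a1, the mitochondrial citrate carrier gene, Fads1 and Fads2, r was 0.68, 0.63 and 0.63 on 29 arrays and 0.20, 0.13 and 0.16 without the pair, so that their relation to Fasn rested on those animals. Elovl6, the elongase gene of the chains that fatty acid synthase releases, kept r = 0.65 of 0.68, and Acsl5, an acyl-CoA synthetase gene, 0.54 of 0.61.

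Some members did not follow Fasn. Agpat3, Agpat2, Elovl1, Dgat1 and Mogat2 had negative r between -0.28 and -0.08, and Mogat1 had 0.08, none with an unadjusted permutation p under 0.05. Acacb and Pnpla3, the members with the smallest p-values for diet, had r = 0.63 each, and 0.42 and 0.39 without the pair. Mlxipl had r = 0.40 (permutation p = 0.0479; adjusted p = 0.540, limma). Elovl3, the member with the largest sex difference, had r = 0.26. With NL replicate 6 included, 24 members passed, 22 of them with a positive slope, as did 58.2% of all probe sets.

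**Figure D4:**
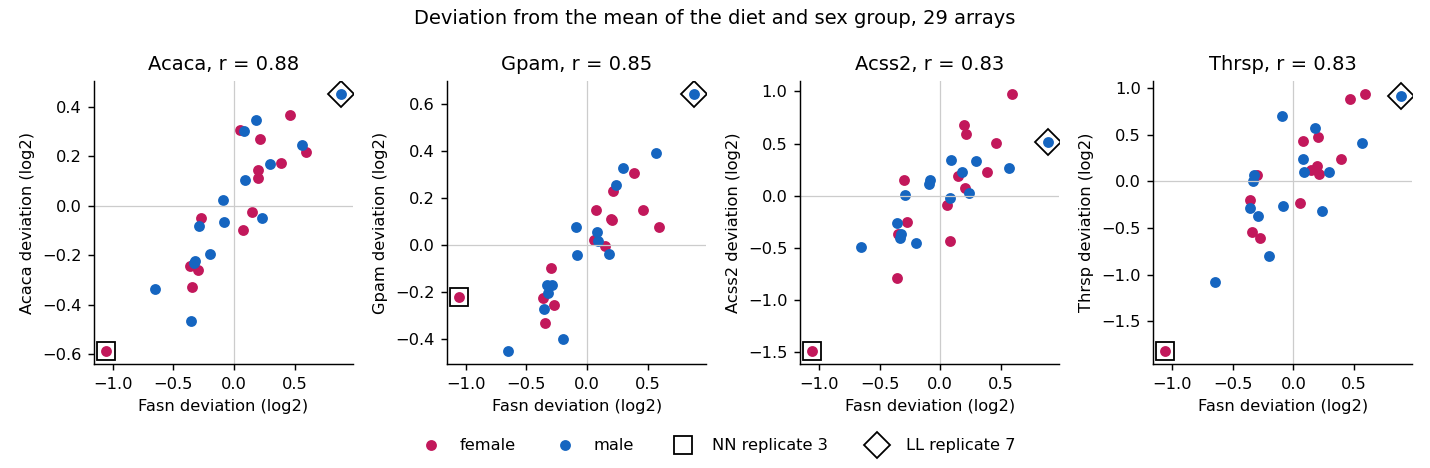
Deviation of Acaca, Gpam, Acss2 and Thrsp (y axes, log2) against the deviation of Fasn (x axis, log2) from the mean of the diet and sex group, 1 point per animal on 29 arrays; NN replicate 3 is boxed and LL replicate 7 is in a diamond. All 4 rise with Fasn, with r from 0.83 to 0.88.

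**Figure D5:**
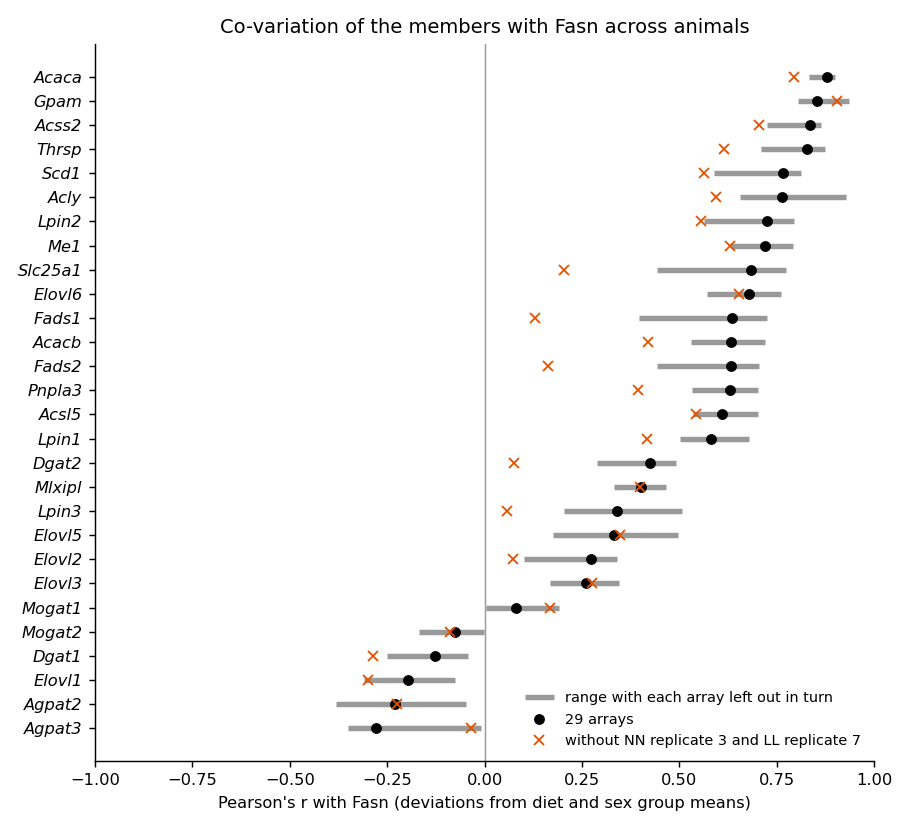
Pearson's r with Fasn (x axis) for the 28 other members (y axis) on 29 arrays (points), its range when each further array is left out in turn (grey bars), and r without NN replicate 3 and LL replicate 7 (crosses). Gpam and Acaca stay at 0.90 and 0.79 without the pair, whereas Slc25a1, Fads1 and Fads2 drop to 0.20, 0.13 and 0.16.

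The 150 bases before an annotated start of the gene are shown for Fasn and for 4 of the 7 members that followed it. These 4 are the ones that held a match of the motifs below, and the others are named after the sequences. The share of all promoters with a match in 150 bases was not counted. Sequences are from RefSeq (GRCm38.p6), 5′ to 3′ along the gene, and capitals mark CCAAT (or ATTGG on the other strand) and the palindrome CACGTG, both searched on both strands. The first is the core of the NF-Y site, and the second is an E-box of the kind bound by USF.
Fasn, chr11:120824548-120824697, minus strand: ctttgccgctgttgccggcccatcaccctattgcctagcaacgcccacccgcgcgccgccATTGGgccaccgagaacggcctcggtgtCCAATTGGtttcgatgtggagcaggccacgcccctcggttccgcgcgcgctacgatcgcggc
Gpam, chr19:55127239-55127388, minus strand: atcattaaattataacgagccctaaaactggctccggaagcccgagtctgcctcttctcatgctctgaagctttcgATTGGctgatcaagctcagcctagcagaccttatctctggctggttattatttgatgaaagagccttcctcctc
Acss2, chr2:155517893-155518042, plus strand: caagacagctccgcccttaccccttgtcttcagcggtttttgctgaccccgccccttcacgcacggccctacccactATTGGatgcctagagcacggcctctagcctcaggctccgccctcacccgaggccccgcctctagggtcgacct
Thrsp, chr7:97417551-97417700, minus strand: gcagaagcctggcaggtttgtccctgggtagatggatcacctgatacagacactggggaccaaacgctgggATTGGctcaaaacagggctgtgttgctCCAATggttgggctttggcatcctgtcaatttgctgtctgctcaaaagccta
Lpin2, chr17:71183382-71183531, plus strand: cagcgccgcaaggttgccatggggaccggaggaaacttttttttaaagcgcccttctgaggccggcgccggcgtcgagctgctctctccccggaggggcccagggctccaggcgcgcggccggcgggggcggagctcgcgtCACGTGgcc

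Fasn held 3 matches of CCAAT, of which a pair overlap in 1 palindromic stretch, Thrsp held 2, and Gpam and Acss2 held 1 each. Lpin2 held CACGTG close to its start. Neither motif was found in the same window of Acaca, Acly or Me1. Only 1 annotated start per gene was searched, so other promoters of these genes were not covered. The Acaca window ends in tttttcccatag, as the end of an intron does, so it cannot decide about the promoter of that gene. Over the 250 bases before the start, 12 of the 25 members with a sequence held CCAAT (48% against 33.8% of 32851 promoters), and 3 held CACGTG (12% against 6.02%). The SREBP element TCACNCCAC, searched on both strands, was in 1 member, Mlxipl (4% against 1.05%). The 32851 promoters were not reduced to 1 per gene, as the members were, so the shares are not fully alike. These matches are descriptions of the letters, not of binding.

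Of 46 other genes of lipid synthesis, 40 were measured, and none passed an adjusted p of 0.05 in any diet comparison (limma, 30 and 29 arrays). In NL against NN, 8 of 40 had an unadjusted p under 0.05 with 30 arrays (23.8% of all probe sets) and 4 without replicate 6 (14.1%). Of the 4, Fads3 at 0.33, Scd4 at 0.36 and Pklr, the liver pyruvate kinase gene, at 0.55 were higher and Gpat4, a glycerol phosphate acyltransferase gene, was -0.33 on the log2 scale (adjusted p from 0.236 to 0.343, limma), and Gpat4 was -0.65 on 30 arrays. In LN, 3 of 40 had such a p with 30 arrays (4.66% of all probe sets) and 3 with 29 (11.6%): Insig2, which retains the SREBP complex in the endoplasmic reticulum, was 0.68 higher, Elovl4, an elongase gene, was 0.31 higher, and Ppargc1b, a coactivator gene, was -0.44 (adjusted p = 0.333, 0.345 and 0.337, limma, 29 arrays). In LL, 0 of 40 had such a p with 30 arrays (3.39%) and 2 with 29 (8.43%). Between the sexes, 6 of the 40 differed at an adjusted p under 0.05 with 29 arrays (5.65% of all probe sets) and 1, Tm6sf2, with 30 (2.51%). Tm6sf2, a gene of lipoprotein lipidation, was lower in males by 0.63 and Mpc1, a subunit of the mitochondrial pyruvate carrier, by 0.44 (log2 differences -0.63 and -0.44, adjusted p = 5.55e-05 and 2.86e-05, limma, 29 arrays). Usf2 and Gpat3 were at -0.28 each (adjusted p = 0.00839 and 0.0160, limma). Cyb5r3, a reductase that serves the desaturases, and Hsd17b12 were each 0.32 higher (adjusted p = 0.0180 and 0.0291, limma). Neither Cyb5r3 nor Hsd17b12 had an unadjusted p under 0.05 on 30 arrays.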

How the data were processed

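Liver RNA of 30 mice was hybridised to Clariom S mouse arrays. The deposited values are log2 signals per probe set that the authors made with Partek Genomics Suite; neither their normalization method nor a genome build is stated in the labels or the methods read for this text. Of 29129 probe sets, 6923 controls were left out of the tests, and gene names came from the platform annotation. limma 3.58.1 in R 4.3.3 was fitted to the log2 signals over all 22206 remaining probe sets, with 4 diet groups or 8 groups of diet and sex, and p-values were adjusted by Benjamini-Hochberg over all of them; single members were tested by exact permutation, or 100000 permutations between the sexes. The relation to Fasn was adjusted over all probe sets in limma, with 100000 permutations within groups. Members described with every value passed an adjusted p of 0.05 with 30 or 29 arrays, or else were up to 4 with the smallest unadjusted p under 0.05 on 29 arrays, with Fasn, Scd1 and Acacb (and Srebf1, which was not measured) added in the comparisons with NN. The members and lists were chosen with earlier results of these data known. The number of arrays limits the precision. Deviations from the diet group mean, for same-numbered arrays of different groups, correlated at r from -0.31 to 0.41. They were over 0.1 in 26 of 42 pairs and not in all. Same-numbered arrays were mostly of the same sex, and sex was not removed from these deviations. The check therefore cannot decide whether numbers pair animals, and numbers were not taken to pair them.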

Additional observations from a re-analysis of the deposited data

Results flagged for a closer look

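In groups of 4 to 10 arrays, a single array lay far from the rest of its group for 35 of 145 tests of member and group; chance flags about 1 in 20 groups. The value given is the gap to the nearest other array over the range of the group.

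With 30 arrays, 22 of these were NL replicate 6 in NL. It was lowest for Slc25a1 (0.864), Acsl5 (0.842), Fads1 (0.826), Scd1 (0.809), Agpat3 (0.797), Dgat1 (0.781), Elovl5 (0.778), Elovl6 (0.752), Gpam (0.736), Me1 (0.725), Thrsp (0.719), Fads2 (0.716), Fasn (0.708), Dgat2 (0.701), Acly (0.695), Acaca (0.683), Agpat2 (0.658), Mlxipl (0.621), Elovl2 (0.607) and Elovl1 (0.585), and highest for Mogat1 (0.718) and Mogat2 (0.571). On the same array the hybridisation controls averaged 7.61 against 10.1 to 11.0; the part of array quality in these values was not tested.

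NN replicate 3 was the lowest NN array for Lpin2 (0.804), Scd1 (0.731), Slc25a1 (0.712), Acsl5 (0.671), Fads1 (0.652) and Acly (0.598). Its hybridisation controls averaged 10.9, within the range of the other arrays.

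LL replicate 7 was the highest LL array for Fasn (0.518) and Slc25a1 (0.502), and LL replicate 6 for Dgat1 (0.609). NN replicate 7 was the highest NN array for Elovl2 (0.722), and LN replicate 6 the lowest LN array for Elovl5 (0.577). Without NL replicate 6, NL replicate 4 was the lowest NL array for Acsl5 (0.694) and Elovl6 (0.671).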

How the results depend on the processing

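Alternatives were the plain variance of the analysis of variance, quantile normalization, median centring, a filter on dim probe sets, fits of only the groups compared, a sex term, the replicate block and array quality weights and leaving out each array; leaving out NL replicate 6 together with another array, the filter, the block, the weights or the other groups was chosen after seeing the data. The number of members past the adjusted test stayed 0 for every diet comparison in every setting, except NL against NN in males, where leaving out 1 array gave 0 to 9 (here and below, 1 array left out of the 30, or 1 more left out of the 29 without NL replicate 6): omitting NL replicate 5 gave 7, and omitting NL replicate 7 gave 9, with NL replicate 6 kept in both. The share of all probe sets called in those settings was not counted, so the counts are not a result about the members. On 30 arrays, 32.8% of all probe sets had an unadjusted p under 0.05 in that comparison (limma). Among repeats of the log2 values for named members, 3722 kept direction and side of the threshold, 118 became significant and 182 reversed. The cause of the changes was not tested.

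The count for males against females was 1 on 30 arrays. It was 4 without NL replicate 6, also with plain variance, quantile normalization, median centring, the filter, the compared groups only or LL replicate 1 left out, and 5 with array quality weights. Leaving out 1 of the 30 arrays gave 1, or 4 for NL replicate 6, and leaving out 1 more of the 29 gave 4 or 5. The count that followed Fasn was 7. It was 24 on all 30 arrays, 1 without NN replicate 3 and LL replicate 7, and 2 without NN replicate 3; leaving out 1 array gave 2 to 8.

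Reversals came mostly with NL replicate 6. Fasn in NL against NN was -0.03 on 30 arrays. It was 0.0827 with quantile normalization, 0.35 with array weights and, without that array, 0.44 (also with plain variance, the filter or the compared groups only), 0.43 (quantile), 0.39 (median centring), 0.36 (array weights) and 0.45 (sex term), and leaving out 1 array gave -0.20 to 0.56. In males Fasn was -0.16. It was 0.0700 with quantile normalization, 0.80 with array weights and, without the array, 0.73, 0.74 (quantile), 0.66 (median centring) and 0.84 (array weights), with -0.56 to 0.83 on leaving out 1 array. Elovl1 in NL males was -0.08. It was 0.23 with quantile normalization, 0.42 with array weights and, without the array, 0.36, 0.43, 0.29 and 0.44 in the same order, with -0.30 to 0.46. Fads1 for the seminal plasma diet was -0.01. It was 0.0856 with quantile normalization, 0.22 with array weights and, without the array, 0.21, 0.22, 0.19, 0.22 and 0.20 (sex term), with -0.0661 to 0.25. Scd1 in NL was -0.0062 with median centring, and leaving out 1 array gave -0.0865 (NN replicate 3) to 0.28; in LN it gave -0.0866 (NN replicate 3) to 0.12. For Thrsp in NL it gave -0.13 (NN replicate 3, with NL replicate 6 kept) to 0.99.

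The same-numbered arrays correlated over 0.1 in 26 of 42 pairs, not in all, in deviations that kept the sex differences. That cannot decide whether the numbers pair animals, and the replicate block is given as an alternative. The replicate number largely followed sex, because females held the lower numbers in every group. The block therefore left little of the contrast between the sexes, and it cannot decide whether the sex calls hold. With the block, Elovl3 was higher in males by 6.33, and 1 member passed between the sexes with 30 or 29 arrays. Elovl1, Agpat2 and Dgat2 were then not called. Dgat2 was 0.0423 on 30 arrays and Agpat2 -0.0936 on 29. Without NL replicate 6 the block gave 0.40 for Fasn in NL, 0.60 for Fasn and 0.38 for Elovl1 in NL males and 0.23 for Fads1, which was 0.0132 on 30 arrays.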
